A study of Mus musculus with 14 samples.

Results

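The genes that type I interferons switch on were followed in 4T1 spheroids, a mouse triple-negative breast cancer line grown as floating cell clusters, through 2 gene knockdowns and the addition of the amino acid aspartate. The members are the genes of the mouse Hallmark interferon alpha response set in the count table, without the proteasome genes (symbols starting with Psm) and without *Csf1* and *Eif2ak2*. The set holds 104 genes, 7 were left out by this rule, and 95 of the 97 that remained were among the 19525 genes of the table (*Ifi27l2b* and *Ifi44l* were not analysed here). The rule uses gene names only, but it was set with earlier results of these data known. The table itself holds only genes that passed a filter on expression. All 14 libraries came from 4T1 cells that carried a lentiviral short hairpin RNA and had been selected with puromycin as polyclonal pools, and each was a separate spheroid pellet kept for 5 days in a medium modelled on lung fluid. NoASP shSCR (n = 3) carried the scrambled hairpin without added aspartate, ASP shSCR (n = 4) carried it with 700 µM aspartate, ASP shGRIN2D (n = 3) carried one that targets *Grin2d* (which encodes an NMDA receptor subunit) with the same aspartate, and ASP shDHPS (n = 4) a hairpin against *Dhps*, the enzyme that begins hypusine synthesis on the translation factor eIF5A, again with aspartate. RNA was taken from the cytosolic lysate, so the values are of cytoplasmic polyadenylated RNA.

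Cells sense foreign RNA or DNA through receptors such as RIG-I, MDA5 (the product of *Ifih1*), TLR3 and cGAS, and answer by secreting type I interferons. These bind the receptor IFNAR1/IFNAR2, whose kinases JAK1 and TYK2 set off a transcription factor complex with STAT2 and IRF9 in it, which binds a promoter element called the ISRE and turns on the interferon-stimulated genes, which block viral entry, RNA and translation and raise antigen presentation by MHC class I. Double-stranded RNA, short hairpin RNAs included, can set off this response in some cells. Every library of the series carried a hairpin, so a library without a hairpin could not be compared, and the contrasts ask whether a targeting hairpin or aspartate moved the members against the scrambled hairpin.

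Levels are library-size-scaled counts (CPM) after TMM scaling, a correction of library size for composition. They are not divided by gene length, so the level of a member is compared between libraries and not with that of another member. Library totals ran from 12731123 to 23231378 counts. *Dhps* was at 18.7, 22.1, 20.2 and 16.7 CPM in ASP shSCR and at 5.57, 5.46, 7.62 and 9.08 CPM in ASP shDHPS, a log2 difference of -1.48 (SE 0.15, adjusted p = 8.3e-06). *Grin2d* was at 3.32, 3.23, 3.68 and 4.16 CPM in ASP shSCR and at 2.06, 2.17 and 3.13 CPM in ASP shGRIN2D, ranges that did not overlap, but its log2 difference of -0.55 (SE 0.28, adjusted p = 0.516) did not pass the test, so the labelled knockdown of *Grin2d* was not detectable by this test at this depth. All 6 epithelial markers (*Epcam*, *Cdh1* and 4 keratins) were expressed, with a summed level of 4839 to 5063 CPM in NoASP shSCR, 4928 to 5075 in ASP shSCR, 3642 to 3939 in ASP shGRIN2D and 3744 to 4391 in ASP shDHPS. The pan-leukocyte markers *Ptprc* and *Coro1a*, summed to at most 0.918 CPM in any library, and none of the 4 T and NK cell markers was in the table. Of 4 macrophage markers *Adgre1* was not in the table, and *Lyz2* had at most 2 and *Csf1r* at most 7 counts in a library. The summed level, nearly all *Cd68*, was 9.5 to 11 CPM in NoASP shSCR, 5.68 to 12.9 in ASP shSCR, 7.87 to 10.2 in ASP shGRIN2D and 12.3 to 16.0 in ASP shDHPS. In such bulk RNA fewer cells of a state and less RNA per cell cannot be told apart.

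Of the 95 members, 64 averaged 5 CPM or more over all libraries, 14 had a mean under 1 CPM, and 3 (*C1s2*, *Lamp3* and *Trim5*) had at most 3 counts in every library and are given no fold. Of the 24 core members 13 averaged 5 CPM or more, and *B2m* (403 to 690.1 CPM) and *Ifitm3* (235 to 427 CPM) had the most reads of these. Several classic targets were at low levels in every library. *Ifit3*, an RNA-binding antiviral protein, ranged from 0.107 to 0.786 CPM over the 14 libraries, *Usp18*, which removes ISG15 from proteins and shuts the receptor down, from 0.258 to 1.73, and *Rsad2* (viperin) from 0.147 to 2.11. *Isg15*, the ubiquitin-like modifier of the response, ranged from 3.59 to 7.79 CPM. *Irf7*, the transcription factor that amplifies interferon production, ranged from 1.60 to 3.12 CPM, and *Oas1a*, an oligoadenylate synthetase, from 1.33 to 3.28. Of these 6 genes only *Isg15* had a group that lay wholly apart from the other three, NoASP shSCR at the low end (3.59 to 4.39 CPM). Further core members averaging 5 CPM or more included *Ifit2* (7.87 to 17.9), *Ifih1* (10.1 to 17.6), *Stat2* (5.88 to 13), *Irf9* (6.14 to 12.9), *Helz2* (7.41 to 16.2), *Herc6* (7.46 to 12), *Parp14* (6.93 to 21.8), *Bst2* (10.7 to 22.3), *Oasl1* (5.09 to 16.9) and *Tap1* (7.23 to 14.6 CPM). Core members averaging under 5 CPM also included *Rtp4* (1.89 to 6.35), *Dhx58* (1.73 to 4.87), *Ddx60* (0.972 to 4.58), *Cmpk2* (0.739 to 3.82), *Cxcl10* (0.918 to 2.99) and *Ifi44* (0.369 to 2.06 CPM). The plot of core members by library shows these levels.

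**Figure D1:**
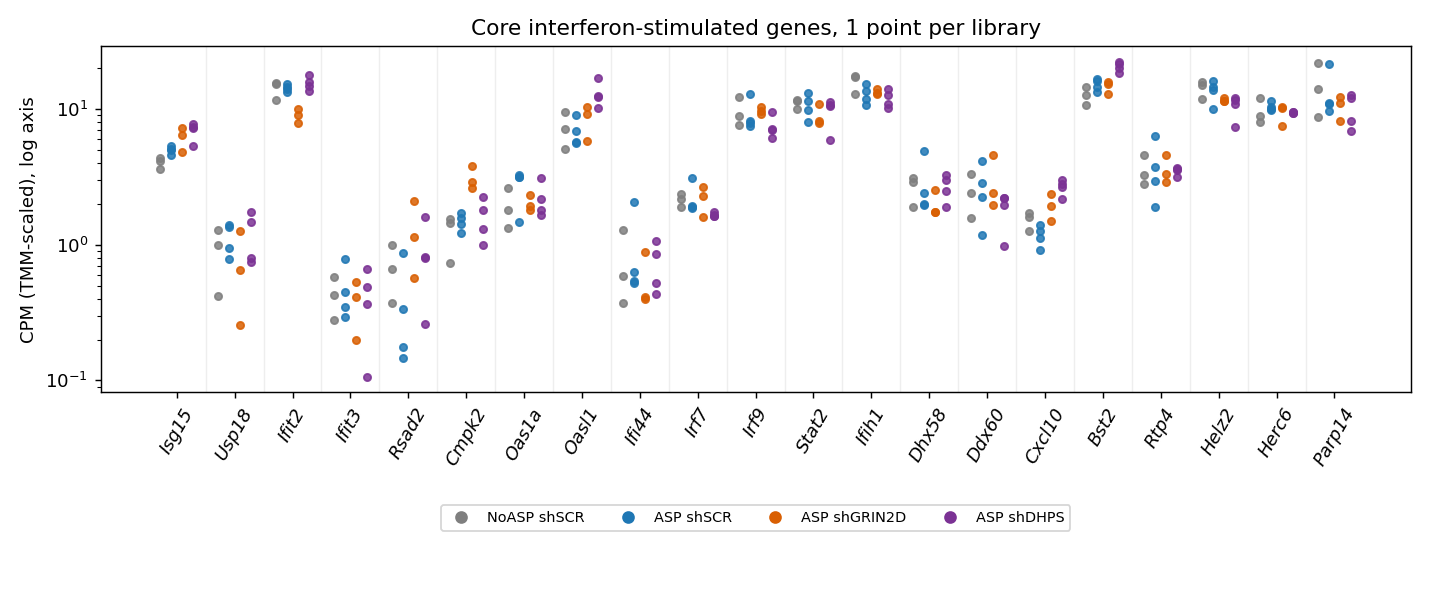
TMM-scaled CPM on a log axis for 21 core interferon-stimulated members, 1 point per library, coloured by group. *Ifit3*, *Usp18*, *Rsad2* and *Ifi44* reach at most 2.11 CPM in any of the 14 libraries. The groups overlap for most genes, while *Ifit2* is lower in ASP shGRIN2D and *Bst2* is higher in ASP shDHPS. *Cxcl10* is higher in ASP shDHPS than in both scrambled groups and overlaps with ASP shGRIN2D.

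The upstream side of the pathway was examined through a list of 56 genes in the table that are not members. Of 13 interferon genes listed only *Ifng* was in the table, with at most 5 counts in a library, and the other 12, *Ifnb1* and the alpha interferons among them, were not analysed here. All 9 receptor and kinase genes were expressed, *Ifnar1* at a mean of 76.4 CPM and *Ifnar2* at 19.1. So were the RNA sensor RIG-I (*Ddx58*, 51.4 CPM), its adaptor *Mavs* (55.9), *Tlr3* (34.9), *Cgas* (21.0) and *Sting1* (25.4 CPM).

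A sequence element that the rule did not use was looked for in the RefSeq promoter windows of 250 bases before to 50 bases after the gene start (build GRCm38.p6), which were found for 78 of the 95 members. The ISRE core was searched on both strands as a pair of GAAA with 2 bases between them. It was in 26 of the 78 members (33.3%) and in 1079 of all 27025 genes with a window (3.99%). The GAS element, searched as TTCNNNGAA, was in 12 of 78 members (15.4%) against 9.55% of all genes, and 5 members held both. A match is only a description of the letters in the window. The stretches around the ISRE match are printed for the 3 members that rose and whose printed stretch lies before the gene start (*B2m*, *Cxcl10*, *Bst2*), for *Isg15* as a core member, and for *Gbp2*, whose level marks the libraries numbered 2 described at the end. Capitals mark the match, and each stretch is given in the direction of the gene.
B2m: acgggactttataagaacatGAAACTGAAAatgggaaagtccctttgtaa
Cxcl10: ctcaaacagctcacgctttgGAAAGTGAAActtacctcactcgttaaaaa
Bst2: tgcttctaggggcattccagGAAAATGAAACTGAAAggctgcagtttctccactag
Isg15: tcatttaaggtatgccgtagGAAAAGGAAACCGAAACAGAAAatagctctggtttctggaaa
Gbp2: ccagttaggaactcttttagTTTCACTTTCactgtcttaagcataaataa
They lie at chr2:122147528-122147577 (plus strand), chr5:92349073-92349122 (minus strand), chr8:71537567-71537622 (minus strand), chr4:156200855-156200916 (minus strand) and chr3:142620584-142620633 (plus strand), in this order. In *Bst2* and *Isg15* the capitals are runs of overlapping matches, and in *Gbp2* the match is on the other strand. The match begins 139 bases before the gene start in *B2m*, 213 in *Cxcl10*, 130 in *Bst2*, 78 in *Isg15* and 59 in *Gbp2*. Of the 13 called members with a window, 4 held the ISRE letters (*B2m*, *Cxcl10*, *Bst2* and *Ifitm3*, 30.8%), the share of all members being 33.3%.

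Added aspartate was compared with none in cells with the scrambled hairpin, and no member passed the test. All tests are edgeR's quasi-likelihood test on the counts with Benjamini-Hochberg adjustment over all 19525 genes, and a gene is called at an adjusted p under 0.05. In ASP shSCR against NoASP shSCR 0 of 95 members were called, as were 0% of all genes and 0% of those averaging 5 CPM or more. At an unadjusted p under 0.05 the members again counted 0, while 424 of all genes (2.17%) were there, and DESeq2's Wald test also called 0 members. The fit with the replicate number as a block, which pairs these libraries, called 0 members and 2 genes in all, and with only these libraries in the fit 0 members and 64 genes. The median log2 difference of the members was 0.01, that of all genes 0.00.

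The members with the smallest unadjusted p among those with at least 5 CPM were *Ifih1*, *Bst2* and *Casp1*. *Ifih1* (MDA5, a sensor of long double-stranded RNA) was at 17.6, 12.9 and 17.2 CPM without and 11.8, 15.2, 10.8 and 13.7 CPM with aspartate, a log2 difference of -0.31 (95% interval -0.62 to 0.00, unadjusted p = 0.0501 in the edgeR fit). *Bst2* (tetherin, which holds budding virus at the membrane) was at 12.6, 14.6 and 10.7 CPM in NoASP shSCR and 16.6, 13.4, 14.5 and 16.2 CPM in ASP shSCR, a log2 difference of 0.26 (-0.01 to 0.54). *Casp1*, the inflammasome protease, was at 12.4, 12.3 and 11.6 CPM in NoASP shSCR and 14.8, 16.4, 12.3 and 14.8 CPM in ASP shSCR, a log2 difference of 0.27 (-0.02 to 0.56). In all 3 the groups overlapped, and the adjusted p was 1. *Isg15* was at 4.39, 3.59 and 4.11 CPM without and at 5.03, 4.57, 5.29 and 5.11 CPM with aspartate. These ranges did not overlap, but the log2 difference of 0.31 (-0.08 to 0.70) did not pass the test.

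With the *Grin2d* hairpin the MHC class I light chain *B2m*, the heavy chain *H2-D1*, the MHC class I gene *H2-Q10* and *Ly6e*, an interferon-induced membrane protein, were higher than with the scrambled hairpin, and *Ifit2* was lower. In ASP shGRIN2D against ASP shSCR 5 of 95 members were called (5.26%), against 1.16% of all genes, and 4 of the 64 members with at least 5 CPM (6.25%), against 1.89% of such genes. The 4 that rose stand beside 0.425% of all genes that rose, and the 1 that fell beside 0.732% that fell. The median log2 difference of the members was -0.01, and that of all genes 0.00, with 44 members on the higher and 48 on the lower side. Without ASP shSCR replicate 2 the member median was 0.05.

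*B2m* was at 467, 447, 419 and 444 CPM in ASP shSCR and at 616, 688 and 690.1 CPM in ASP shGRIN2D, a log2 difference of 0.58 (SE 0.09, adjusted p = 0.000940). All 3 knockdown libraries lay above all 7 libraries with the scrambled hairpin, which lay in the range 403 to 467 CPM. *H2-D1* was at 431, 477, 428 and 407 CPM in ASP shSCR and 633, 625 and 644 CPM in ASP shGRIN2D, a log2 difference of 0.54 (SE 0.09, adjusted p = 0.00175), again without overlap. *Ly6e* was at 76.9, 66.5, 65.8 and 70.3 CPM in ASP shSCR and 113, 113 and 117 CPM in ASP shGRIN2D, a log2 difference of 0.71 (SE 0.09, adjusted p = 0.000190), the smallest adjusted p among the members. These 3 calls held without any 1 library, with adjusted p of at most 0.0175. *H2-Q10* was at 3.59, 3.34, 3.63 and 4.48 CPM in ASP shSCR and 6.95, 6.34 and 6.73 CPM in ASP shGRIN2D, a log2 difference of 0.84 (SE 0.19, adjusted p = 0.0239). Its call was lost without any 1 of replicates 1, 2 and 3 of either group (adjusted p 0.057 to 0.135).

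*Ifit2*, which binds viral RNA and restrains translation, went the other way. It was at 13.3, 14, 14.5 and 15.2 CPM in ASP shSCR and 9.06, 9.98 and 7.87 CPM in ASP shGRIN2D, a log2 difference of -0.66 (SE 0.14, adjusted p = 0.0190), with every knockdown library below every other library of the series. The call was lost without ASP shSCR replicate 4 (adjusted p = 0.0609) or ASP shGRIN2D replicate 1 (0.0936) or 3 (0.158). Of the 24 core members *B2m* and *Ifit2* were called (8.33%, beside 1.16% of all genes), in opposite directions. For *Isg15* the log2 difference was 0.30 (95% interval -0.08 to 0.67), for *Irf7* -0.03 (-0.58 to 0.53), for *Stat2* -0.23 (-0.65 to 0.18) and for *Usp18* -0.67 (-1.69 to 0.35). Without ASP shSCR replicate 2, *Irf7* was at 0.19 and *Stat2* at -0.11. *Cmpk2*, a mitochondrial nucleotide kinase next to *Rsad2*, was at 1.22, 1.73, 1.42 and 1.57 CPM and 2.88, 3.82 and 2.6 CPM, a log2 difference of 1.07 (SE 0.31, adjusted p = 0.113) that did not pass here and passed with DESeq2 (adjusted p = 0.0489). *Rsad2* was at 0.175, 0.334, 0.147 and 0.864 CPM in ASP shSCR and 0.567, 2.11 and 1.13 CPM in ASP shGRIN2D, which overlapped, with a log2 difference of 1.84 (95% interval 0.56 to 3.13, adjusted p = 0.210). *Lgals3bp*, a secreted galectin-binding protein, was at 33.8, 38.9, 36.5 and 35.9 CPM in ASP shSCR and 45.2, 49.7 and 45.7 CPM in ASP shGRIN2D, without overlap, and its log2 difference of 0.37 (SE 0.10, adjusted p = 0.102) did not pass here and passed with DESeq2 (adjusted p = 0.0210) and with only the groups compared in the edgeR fit (0.0470), as did *Cmpk2* in the latter (0.0470).

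The 6 MHC class I heavy chain genes among the members (H2 genes) belong to 1 gene family, in which the H2-Q genes and *H2-D1* share long stretches of sequence, and 4T1 cells, which come from a BALB/c mouse, carry other alleles than the reference genome. Their counts could be split between copies, so the single-copy gene *B2m* is the safer reading. In ASP shGRIN2D all 6 lay on the higher side, with 2 called and a median log2 difference of 0.63. *H2-Q7* was at 4.98, 7.35, 4.75 and 2.83 CPM in ASP shSCR and 9.17, 8.22 and 7.40 CPM in ASP shGRIN2D (0.72, adjusted p = 0.158), and *H2-T23*, a non-classical class I gene, at 40.1, 61.0, 40.8 and 41.4 CPM in ASP shSCR and 50.4, 51.8 and 51.7 CPM in ASP shGRIN2D (0.16). The summed level of the H2 members and *B2m* was 839 to 952 CPM in NoASP shSCR, 902 to 1003 in ASP shSCR, 1324 to 1408 in ASP shGRIN2D and 1071 to 1270 in ASP shDHPS. Both knockdown groups lay above all 7 scrambled libraries in this sum. In ASP shDHPS 3 of the 6 heavy chain genes lay on the higher and 3 on the lower side, with 1 called (*H2-Q10*) and a median log2 difference of 0.02, and *B2m* alone went from a mean of 444 to 621 CPM. Without ASP shSCR replicate 2, *H2-Q7* (0.96, adjusted p = 0.0217) and *H2-Q2* (1.17, 0.0454) were called in ASP shGRIN2D in the edgeR fit. *Tap1*, which loads peptides for class I, was at 8.22, 14.6, 9.31 and 8.48 CPM in ASP shSCR and 11.5, 12.2 and 11.3 CPM in ASP shGRIN2D (0.20, adjusted p = 0.774). Without ASP shSCR replicate 2 the log2 difference was 0.43 for *Tap1* (adjusted p = 0.429 in edgeR) and 0.33 for *H2-T23* (0.465). The epithelial marker sum was lower in all 7 knockdown libraries than in all 7 scrambled ones, and its part in these results was not tested. *Epcam* and the keratins had lower means in both knockdown groups than in ASP shSCR. *Cdh1* did not follow, with means of 442 CPM in ASP shSCR, 422 in ASP shGRIN2D and 453 in ASP shDHPS.

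**Figure D2:**
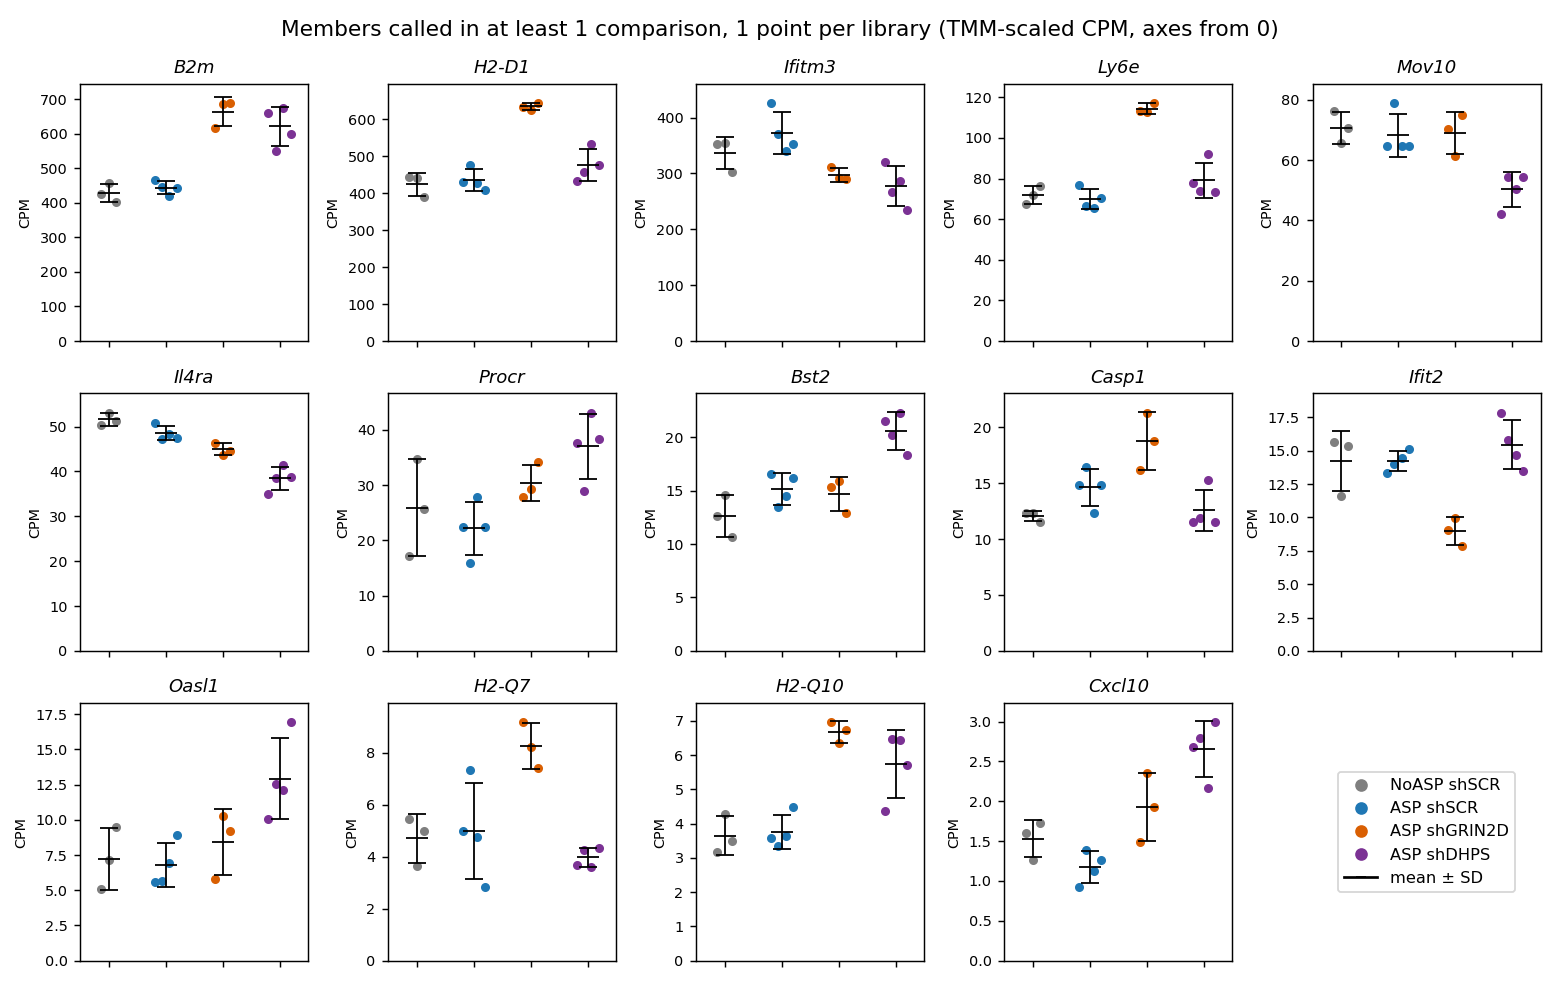
TMM-scaled CPM (linear axes from 0) of the 14 members called in at least 1 comparison, 1 point per library with the mean and SD of each group. *B2m* is higher in both knockdown groups, *H2-D1* and *Ly6e* stand apart in ASP shGRIN2D, and *Ifit2* is low in ASP shGRIN2D. *Cxcl10*, *Oasl1* and *Bst2* have their highest mean in ASP shDHPS.

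With the *Dhps* hairpin 9 members were called, of which *B2m*, *Cxcl10*, *Oasl1*, *Procr*, *Bst2* and *H2-Q10* rose and *Ifitm3*, *Mov10* and *Il4ra* fell. These 9 of 95 (9.47%) stand beside 4.22% of all genes called, and 7 of the 64 members with at least 5 CPM (10.9%) beside 6.93%. The 6 that rose stand beside 1.65% of all genes that rose and the 3 that fell beside 2.57%. Of the 24 core members 5 were called (20.8%, beside 4.22% of all genes), 4 of them higher and 1 lower. The median log2 difference of the members was -0.08, against 0.00 for all genes, with 38 members on the higher and 54 on the lower side. Without ASP shSCR replicate 2 the member median was -0.02.

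*B2m* was at 659, 551, 676 and 599 CPM in ASP shDHPS, above all libraries with the scrambled hairpin, a log2 difference from ASP shSCR of 0.48 (SE 0.08, adjusted p = 0.00186). *Cxcl10*, the chemokine that draws T cells through CXCR3, was at 0.918, 1.39, 1.13 and 1.26 CPM in ASP shSCR and 2.68, 2.80, 2.16 and 2.99 CPM in ASP shDHPS, a log2 difference of 1.19 (SE 0.25, adjusted p = 0.00872). This was the largest fold among the called members, from a low level, and the groups compared did not overlap. In ASP shGRIN2D, where it was not called, *Cxcl10* was at 1.49, 2.35 and 1.93 CPM. These values lay above all ASP shSCR libraries and overlapped with ASP shDHPS. The macrophage marker *Cd68* was also higher on average in ASP shDHPS (13.8 CPM against 9.45 in ASP shSCR, with overlap). *Csf1r*, another macrophage marker, was at 0 CPM in every ASP shDHPS library and at most 0.175 CPM in ASP shSCR. The part of such cells in these results was not tested. *Oasl1*, an oligoadenylate synthetase-like protein, was at 5.60, 5.68, 6.91 and 8.96 CPM in ASP shSCR and 10.1, 12.5, 12.2 and 16.9 CPM in ASP shDHPS, a log2 difference of 0.94 (SE 0.21, adjusted p = 0.0113). The calls of *B2m*, *Cxcl10* and *Oasl1* held without any 1 library (adjusted p of at most 0.0393). *Procr*, the protein C receptor, was at 22.5, 15.9, 27.8 and 22.5 CPM in ASP shSCR and 37.6, 29.0, 43.2 and 38.4 CPM in ASP shDHPS, a log2 difference of 0.74 (SE 0.17, adjusted p = 0.0169). It was lost with a robust prior (adjusted p = 0.0586) and without ASP shSCR replicate 2 (0.0557) or ASP shDHPS replicate 3 (0.0698). *Bst2* was at 16.6, 13.4, 14.5 and 16.2 CPM in ASP shSCR and 21.5, 20.2, 22.3 and 18.3 CPM in ASP shDHPS, a log2 difference of 0.44 (SE 0.12, adjusted p = 0.0388), with all 4 knockdown libraries above all 10 others. Its call was lost without any 1 of ASP shSCR replicates 2 to 4 and ASP shDHPS replicates 1 to 3 (0.0587 to 0.128). *H2-Q10* was at 4.36, 6.46, 6.43 and 5.71 CPM, overlapping ASP shSCR, a log2 difference of 0.62 (SE 0.18, adjusted p = 0.0479), and its call was lost without any 1 of ASP shSCR replicates 1 to 3 and ASP shDHPS replicates 2 to 4 (0.0733 to 0.144), with library size as the only scaling (0.0533) and with only the groups compared in the fit (0.0838).

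The 3 members that fell are 2 antiviral proteins and a cytokine receptor chain. *Ifitm3*, which stops viruses from fusing in endosomes, was at 427, 370.4, 339.8 and 353 CPM in ASP shSCR and 321, 268, 286 and 235 CPM in ASP shDHPS, a log2 difference of -0.43 (SE 0.10, adjusted p = 0.0132), and missed the threshold without ASP shSCR replicate 1 (adjusted p = 0.0504). *Mov10*, an RNA helicase with antiviral action, was at 64.8, 79.1, 64.7 and 64.7 CPM in ASP shSCR and 42.0, 54.4, 50.3 and 54.5 CPM in ASP shDHPS, a log2 difference of -0.44 (SE 0.10, adjusted p = 0.0140), and was lost without ASP shSCR replicate 2 (0.0615). *Il4ra*, the interleukin-4 receptor chain, was at 50.7, 47.3, 48.4 and 47.5 CPM in ASP shSCR and 35.0, 38.6, 41.5 and 38.6 CPM in ASP shDHPS, a log2 difference of -0.34 (SE 0.08, adjusted p = 0.0220), and was lost with only the groups compared in the fit (0.0711) and without ASP shSCR replicate 1 (0.0597). In all 3 every knockdown library lay below every ASP shSCR library. *Ifitm3* was also at 312, 291 and 290.0 CPM in ASP shGRIN2D, where its log2 difference of -0.32 (SE 0.11, adjusted p = 0.192) did not pass.

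In ASP shDHPS 8 of the 24 core members had an unadjusted p under 0.05 in the edgeR test (6 higher and 2 lower), and 5 were called. At that unadjusted threshold stood 3769 of all 19525 genes, 1758 higher and 2011 lower. Values of some that were not called follow. *Isg15* was at 5.36, 7.79, 7.24 and 7.31 CPM, a log2 difference of 0.47 (95% interval 0.12 to 0.81, adjusted p = 0.121). For *Ifit2* it was 0.12 (-0.14 to 0.38), for *Irf7* -0.41 (-0.93 to 0.11), for *Stat2* -0.14 (-0.52 to 0.24), for *Irf9* -0.30 (-0.68 to 0.09) and for *Parp14* -0.41 (-0.95 to 0.14). ASP shSCR replicate 2 was high in several of these genes. Without it the log2 difference was -0.19 for *Irf7*, -0.08 for *Irf9*, -0.07 for *Parp14* and -0.02 for *Stat2*, and *Stat2* was at 0.04 without ASP shDHPS replicate 1. Of the 10 transcription factors 8 lay on the lower side with all libraries (median -0.20) and 7 without ASP shSCR replicate 2 (median -0.09), and none passed in either fit. The 3 PARP genes, enzymes that attach ADP-ribose, had a median log2 difference of -0.41 with all libraries and of -0.11 without that library, and none passed.

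Set against each other at the same aspartate, the 2 targeting hairpins differed in 7 members (7.37%), beside 2.82% of all genes, and in 7 of the 64 with at least 5 CPM (10.9%), beside 4.66%. *Ifit2* and *Bst2* were higher in ASP shDHPS (1.2% of all genes were higher), and *Ly6e*, *H2-Q7*, *H2-D1*, *Casp1* and *Mov10* were lower (1.62% of all genes were lower). *Ifit2* was at 17.9, 15.8, 14.7 and 13.5 CPM against 9.06, 9.98 and 7.87 in ASP shGRIN2D, a log2 difference of 0.78 (SE 0.14, adjusted p = 0.00256). *Ly6e* was at 77.6, 73.7, 91.9 and 73.5 CPM against 113, 113 and 117, a log2 difference of -0.53 (SE 0.09, adjusted p = 0.00212). These 2 calls held without any 1 library. *H2-D1* was at 432, 458, 534 and 475 CPM against 633, 625 and 644, a log2 difference of -0.42 (SE 0.09, adjusted p = 0.00998) that was lost without ASP shGRIN2D replicate 1 (adjusted p = 0.0588) or 3 (0.0572). *H2-Q7* was at 3.68, 4.26, 3.62 and 4.32 CPM, below all 3 ASP shGRIN2D libraries, with a log2 difference of -1.06 (SE 0.23, adjusted p = 0.00976) that was lost without ASP shGRIN2D replicate 1 (0.0793).

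*Casp1* was at 11.5, 11.9, 15.3 and 11.5 CPM in ASP shDHPS and 16.2, 21.3 and 18.8 CPM in ASP shGRIN2D, a log2 difference of -0.58 (SE 0.14, adjusted p = 0.0209), and was lost without any 1 of ASP shGRIN2D replicates 2 and 3 and ASP shDHPS replicates 1, 2 and 4 (adjusted p 0.0527 to 0.15). *Mov10* differed by -0.46 (SE 0.11, adjusted p = 0.0226) and was lost without ASP shGRIN2D replicates 1 or 3 or ASP shDHPS replicates 1 or 3 (0.0546 to 0.151). *Bst2* differed by 0.49 (SE 0.13, adjusted p = 0.0466) and was lost without any 1 of the 3 ASP shGRIN2D libraries and ASP shDHPS replicates 1 to 3 (0.0801 to 0.246). *B2m* was high in both groups, with a log2 difference between them of -0.10 (95% interval -0.28 to 0.09). The comparisons with ASP shSCR share its 4 libraries, so a member that moved the same way in both is not seen in 2 independent contrasts.

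**Figure D3:**
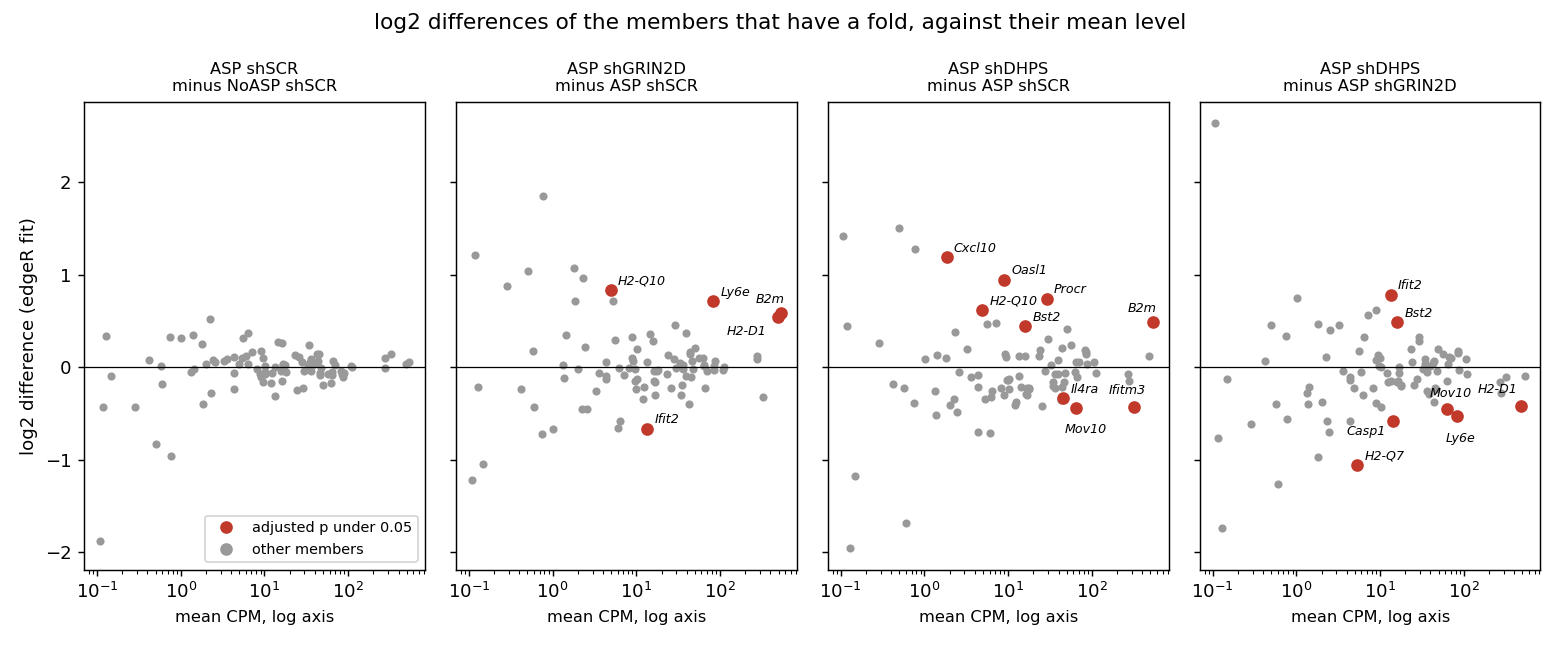
log2 difference of each of the 92 members with a fold (y axis) against its mean CPM on a log axis (x axis), in a panel for each comparison, with members called at an adjusted p under 0.05 in red and named. No member is called for aspartate, and the called members in the other 3 panels lie on both sides of 0, and the widest differences among uncalled members are at the low levels.

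The summed level of all 95 members was 3647 to 3903 CPM in NoASP shSCR, 3636 to 4074 in ASP shSCR, 4238 to 4291 in ASP shGRIN2D and 3800 to 4092 in ASP shDHPS. Only ASP shGRIN2D lay above all other libraries. *B2m*, *H2-D1* and *Ifitm3* collected the most reads of the members, and without them the sum was 2508 to 2681, 2450 to 2779, 2644 to 2676 and 2445 to 2596 CPM, so that the groups overlapped. The core members without *B2m*, *Ifitm3* and *Tap1* summed to 114 to 149, 115 to 153, 112 to 134 and 120.2 to 142 CPM in the same order, also with overlap. By role, antigen presentation (10 members) had 3 called in ASP shGRIN2D and 2 in ASP shDHPS, all higher (30% and 20%, beside 1.16% and 4.22% of all genes called in either direction). The median log2 differences were 0.38 and 0.25, or 0.21 and 0.09 for the 8 that averaged 5 CPM or more. These 10 leave out *H2-M3*, 1 of the 6 H2 members, which was filed under another role and was not called. *H2-M3* was at 3.85 to 4.66 CPM in ASP shSCR, 4.23 to 4.58 in ASP shGRIN2D and 3.36 to 4.43 in ASP shDHPS, with overlap. Counting it would lower both shares and the medians of 0.38 and 0.25. The 23 antiviral effectors had 2 called in ASP shGRIN2D, in opposite directions, and 4 in ASP shDHPS, 2 in each direction. These are 8.70% and 17.4%, beside 1.16% and 4.22% of all genes. The 11 cytokines, chemokines and receptors had 0 called in ASP shGRIN2D and 3 in ASP shDHPS, 2 higher and 1 lower. These 3 are 27.3%, beside 4.22% of all genes. Among the 3 cell death members 1 was called, only between the knockdowns (33.3%, beside 2.82% of all genes). The 5 RNA sensors, the 10 transcription factors, the 5 genes of the ISG15 pathway, the 10 ubiquitin ligases and TRIM proteins, the 3 PARP genes, the 2 guanylate-binding proteins and the 13 members of other roles had none called in any comparison.

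**Figure D4:**
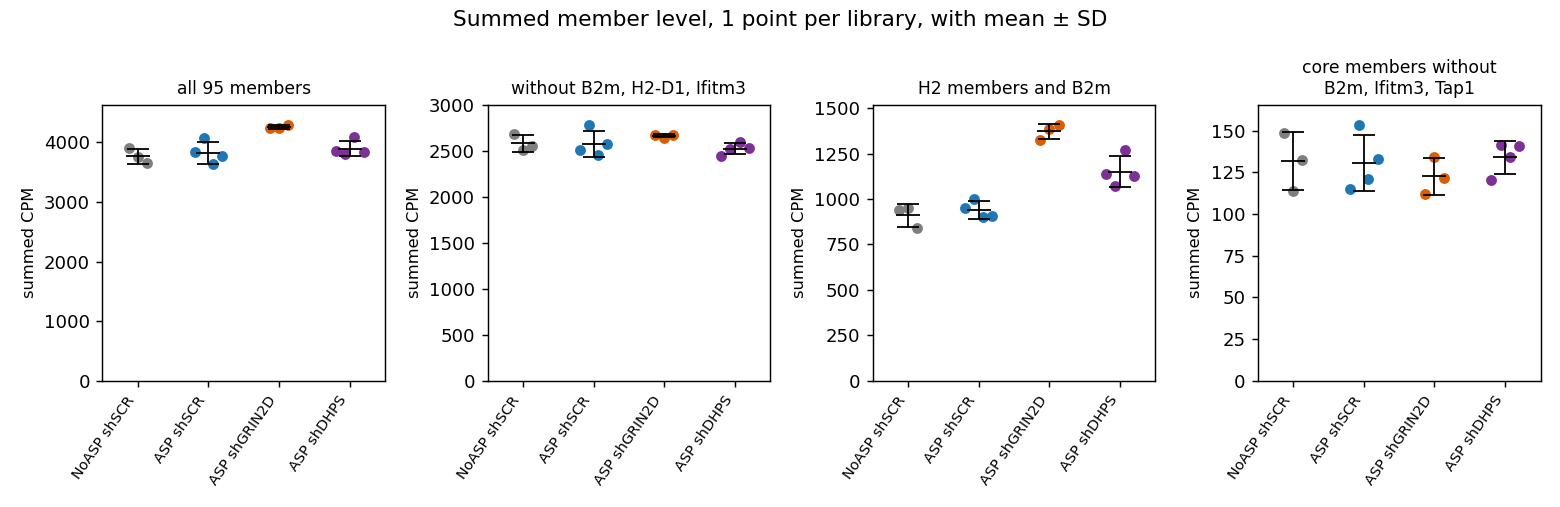
Summed TMM-scaled CPM per library (points) with group mean and SD, axes from 0, for all 95 members, all but the 3 with the most reads, the 6 H2 members with *B2m*, and the core members without *B2m*, *Ifitm3* and *Tap1*. The H2 and *B2m* sum is highest in ASP shGRIN2D (1324 to 1408 CPM), and the core sum overlaps in all 4 groups (112 to 153 CPM).

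Of the 56 pathway genes that are not members, 2 were called in ASP shGRIN2D (3.57%, beside 1.16% of all genes), 1 in ASP shDHPS (1.79%, beside 4.22%) and 3 between these groups (5.36%, beside 2.82%). *Ifngr1*, a chain of the interferon gamma receptor, was at 32.0, 39.6, 36.6 and 34.6 CPM in ASP shSCR and 21.3, 22.4 and 22.9 CPM in ASP shGRIN2D, a log2 difference of -0.69 (SE 0.10, adjusted p = 0.000769). *Tlr3*, the endosomal sensor of double-stranded RNA, was at 31.0, 45.6, 34.5 and 37.9 CPM in ASP shSCR and 22.8, 28.2 and 25.4 CPM in ASP shGRIN2D, a log2 difference of -0.55 (SE 0.13, adjusted p = 0.0459). *Jak2*, the kinase of the interferon gamma receptor, was at 199, 246, 174 and 202 CPM in ASP shSCR and 123, 134, 97.9 and 113 CPM in ASP shDHPS, a log2 difference of -0.81 (SE 0.12, adjusted p = 0.000599). All 3 were lower with the knockdown. *Ifngr1*, *Tlr3* and *Isg20l2* were higher in ASP shDHPS than in ASP shGRIN2D, by 0.90, 0.52 and 0.39 on the log2 scale (adjusted p = 1.5e-05, 0.0375 and 0.0312). Of the 109 genes of the Hallmark interferon gamma set that are not members, 0, 3, 7 and 3 were called in the comparisons in the order used above (0%, 2.75%, 6.42% and 2.75%, beside 0%, 1.16%, 4.22% and 2.82% of all genes). *Nlrc5*, the transactivator of MHC class I genes, was higher in ASP shGRIN2D (a log2 difference of 0.67 (SE 0.15, adjusted p = 0.0311)), and *Tapbp*, which helps load class I, was higher in ASP shDHPS (a log2 difference of 0.45 (SE 0.09, adjusted p = 0.00739)).

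Within the scrambled groups the libraries numbered 2 stood apart for many members, which earlier results had already singled out. Both lay above all 5 other scrambled libraries for 27 of the 64 members with at least 5 CPM (42.2%), against 20.8% of all 10224 genes at that level, and below all 5 for 5 members (7.81%), against 18.4%. The genes that follow were chosen after their values were seen. *Parp14* was at 21.4 CPM in ASP shSCR replicate 2 and 21.8 in NoASP shSCR replicate 2, against 8.65 to 14.1 in the 5 others and 6.93 to 12.8 in the 7 knockdown libraries. *Gbp2*, a guanylate-binding protein against intracellular pathogens, was at 30.4 and 26.8 CPM against 13.3 to 16.9 and 12.1 to 18.8. *Parp9* was at 45.5 and 35.1 CPM against 22.4 to 25.3 and 20.2 to 26.9. *Irf1*, a transcription factor of the interferon gamma response, was at 72.4 and 54.3 CPM against 37.5 to 45.3 and 32.5 to 40.7. *Irf9* was at 12.9 and 12.3 CPM against 7.54 to 8.92 and 6.14 to 10.4, and *Tap1* at 14.6 and 12.6 against 7.23 to 11.7 and 7.30 to 12.2 CPM. In these 6 chosen genes every knockdown library lay below the pair. Among the 27 members this did not hold for *H2-Q7*, *Txnip*, *Ripk2*, *Lgals3bp*, *Plscr1*, *H2-D1* and *Trim25*. The share over all genes chosen in the same way was not counted, so this is not read as a trait of the members. Of the 23 of these 27 members with a promoter window, 4 (17.4%) held the ISRE letters and 3 (13%) TTCNNNGAA, against 13 of 32 (40.6%) and 6 of 32 (18.8%) of the other members at that level. No source names what the libraries numbered 2 share beyond their number, and what sets them apart was not tested. Without both of them 8 members were called in ASP shGRIN2D, the 5 above with *H2-Q2*, *H2-Q7* and *Lgals3bp*, and 7 in ASP shDHPS, the 9 above without *Bst2* and *H2-Q10*. The number of all genes called in this fit is not given here. Over all alternatives it ran from 86 to 611 in ASP shGRIN2D and from 412 to 2150 in ASP shDHPS. The change in called members is therefore not read as a result about the members.

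**Figure D5:**
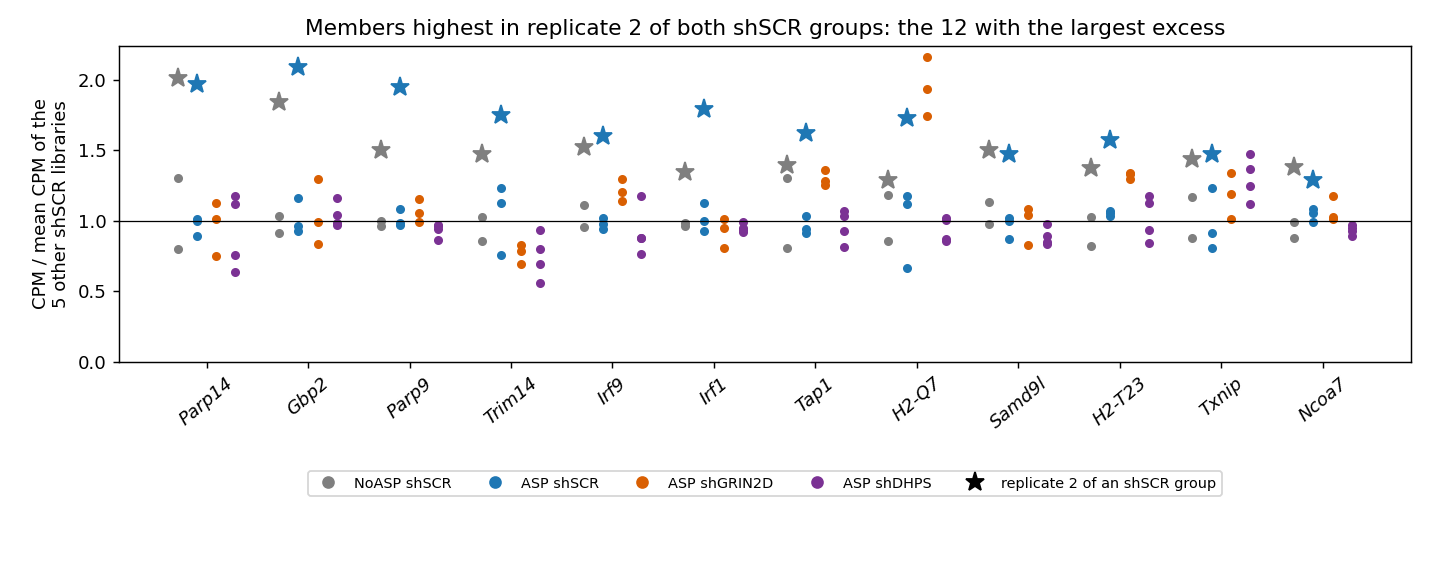
CPM of each library divided by the mean CPM of the 5 scrambled libraries not numbered 2 (line at 1), for the 12 with the largest excess among the 27 members that were highest in replicate 2 of both scrambled groups (stars). By this choice the stars lie above the other scrambled libraries for each gene shown, in *Parp14* at 21.4 and 21.8 against 8.65 to 14.1 CPM, while *H2-Q7* is higher still in ASP shGRIN2D.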

How the data were processed

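Total RNA of 14 libraries of 4T1 spheroids (14 samples in 4 groups, mapped by their labels) was analysed at the level of gene counts. The deposited values are whole-number gene counts. To make them the authors used Trim Galore 0.6.6, FastQC 0.11.9, STAR 2.6.1 (alignment to GRCm39) and Salmon 1.4.0 (quantification), rounded Salmon's estimates and applied a filter on genes without expression, per the submitters' processing notes and the study's methods. In the table every gene has a count above 0 in at least 2 libraries of 1 group, so genes silent in all groups are not analysed here. The authors' tables of their own comparisons, which hold fold changes and p-values, were not used. The study describes independent spheroid pellets of polyclonal cells, so p-values measure the spread between pellets.

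The counts were fitted as deposited with edgeR 4.0.16 (R 4.3.3; TMM factors 0.984 to 1.02, glmQLFit and glmQLFTest with the group as the only term, all 14 libraries sharing 1 spread per gene, Benjamini-Hochberg over 19525 genes, calls at an adjusted p under 0.05). The standard error is the log2 difference divided by the root of the F statistic, and 95% intervals use the t quantile of the fit. Genes that never exceeded 3 counts are given no fold. Depth was 12731123 to 23231378 counts, and no 2 libraries of a group agreed within sampling noise (chi-square per degree of freedom 7.69 to 41.8). The replicate numbers deviated together between ASP shSCR and NoASP shSCR (r 0.203 to 0.514 over genes with at least 5 CPM, for 3 pairs) and were taken to pair these groups only. Between ASP shDHPS and ASP shSCR r was 0.258, 0.195 and 0.201 in replicates 1 to 3, near the lower of those values, and 0.0404 in replicate 4. The correlations thus do not cleanly separate these 2 comparisons. No per-sample column was left unmatched. The alternatives were DESeq2 1.42.0, other scaling, filterByExpr, a robust prior, fits of only the groups compared, the replicate block and leaving out libraries. The script was tested on simulated data.

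The members and gene lists were chosen with earlier results of these data known, so no test over a list is given. The text names 24 core members (*Mx1* is no member), every member called, the 3 members with the smallest p (5 CPM or more in 1 of the groups) where fewer than 3 were called, and the 3 with the most reads. Promoter windows are RefSeq sequences of GRCm38.p6, another build than that of the counts, and were matched by gene symbol only (78 of 95 matched, 1 or more windows a gene).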

Additional observations from a re-analysis of the deposited data

Results flagged for a closer look

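Within the groups of 4, the levels of 32 named members, 4 summed levels and the library totals were examined for a library far from the others (74 groups of values, of which chance marks about 1 in 20). It was found in 10. In ASP shSCR, replicate 2 was the highest library for *Parp14* (21.4 CPM against 9.71 to 11 in the others), *Mov10* (79.1 against 64.7 to 64.8), *Irf9* (12.9 against 7.54 to 8.18), *Irf7* (3.12 against 1.86 to 1.92) and *Ifi44* (2.06 against 0.525 to 0.628). Replicate 4 of ASP shSCR was the highest for *Dhx58*, at 4.87 CPM against 1.97 to 2.39, and replicate 3 the lowest for *Oas1a*, at 1.47 CPM against 3.14 to 3.28. In ASP shDHPS, replicate 3 was the highest for *Casp1* (15.3 CPM against 11.5 to 11.9), replicate 1 the lowest for *Stat2* (5.88 CPM against 10.5 to 11.2), and replicate 2 had the lowest total, 14883457 counts against 18643925 to 19346701.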

How the results depend on the processing

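No alternative turned the direction of a called member. In ASP shGRIN2D against ASP shSCR the 5 called members became 8 with DESeq2, 11 with the replicate block and 8 with both scrambled libraries numbered 2 left out, the 5 being kept in each. Leaving out 1 library gave 3 to 6, with 3 without ASP shGRIN2D replicate 1 or 3. In ASP shDHPS against ASP shSCR the 9 became 14 with the replicate block and 15 with the block and only the groups compared, the 9 being kept in both, and 8 with library size as the only scaling (*H2-Q10* lost), 8 with a robust prior (*Procr* lost) and 7 with only the groups compared (*H2-Q10* and *Il4ra* lost). Leaving out 1 library gave 5 to 9, with 5 without ASP shSCR replicate 2. Between the knockdowns the 7 became 11 with the block and only the groups compared, the 7 being kept. Leaving out 1 library gave 3 to 6, with 3 without ASP shGRIN2D replicate 1 or 3 and 4 without ASP shDHPS replicate 1. Not every same-numbered pair that involves a knockdown group deviated together over all genes (r -0.117 to 0.258; over the members alone 0.0745 to 0.461), and 1 of 6, 5 of 8 and 2 of 6 samples correlated best with their own number in the comparisons in this order. The block counts for the comparisons with a knockdown group are therefore given only here. For ASP shDHPS against ASP shSCR that choice is not clear-cut, as r was 0.258, 0.195 and 0.201 in replicates 1 to 3 and 0.0404 in replicate 4. The block added *Ifitm3*, *Cmpk2*, *Procr*, *Lgals3bp*, *Rsad2* and *H2-Q7* in ASP shGRIN2D (adjusted p 0.00446 to 0.0337 in edgeR), *Cd74*, *Ifi30*, *Trim14* and *Uba7* among others in ASP shDHPS, and *Cd74* and *Cmpk2* between the knockdowns, and the cause of these changes was not tested. For aspartate 0 members were called in all 16 alternatives, and the median member log2 difference of 0.0132 ranged from -0.0808 (without ASP shSCR replicate 2) to 0.0734 (without NoASP shSCR replicate 2). Over the alternatives the median ran from -0.0357 to 0.0464 in ASP shGRIN2D, changing sign (0.0464 without ASP shSCR replicate 2), and from -0.1233 to -0.0136 in ASP shDHPS (-0.0136 with both scrambled libraries numbered 2 left out). Over all genes the calls were 226 in ASP shGRIN2D (442 with DESeq2, 611 with the block, 374 and 363 with only the groups compared without and with it, 86 to 208 without 1 library), 824 in ASP shDHPS (1379 with DESeq2, 2150 with the block, 2026 with the block and only the groups compared, 412 to 894 without 1 library), 550 between the knockdowns (933 with DESeq2, 1468 with the block, 1527 with the block and only the groups compared, 209 to 577 without 1 library) and 0 for aspartate (2 with the block, 64 with the block and only the groups compared, 0 to 1 without 1 library). The filter on low counts kept 87 of the 95 members. With 1 mismatch allowed in the ISRE letters, 64.1% of members and 38.9% of all genes had a match. Members under 5 CPM have wide intervals, which limits what can be said of them.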
